A study of Mus musculus with 4 samples.

Results

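Region-specific gene expression was examined in the dorsal striatum of mice homozygous for a humanised Foxp2 allele, written Foxp2hum/hum, by setting their dorsomedial striatum (DMS) against their dorsolateral striatum (DLS). The libraries were taken by their column titles: 12 libraries of Foxp2hum/hum DMS and 12 of Foxp2hum/hum DLS, 24 of the 46 libraries in the table. The other 22 are 11 DMS and 11 DLS libraries of wild-type mice. Their regional difference is given only where it is set beside that of Foxp2hum/hum. They also enter the filter on low counts and the estimate of spread that all 4 groups share, so they bear on the SE and p-values below. Mice of all 4 groups are of the C57BL/6 strain and 8 weeks old; no drug or behavioural treatment is given for any group, and the allele is a germline knock-in, so that every cell of a Foxp2hum/hum mouse carries it. Each region was cut from frozen brain by laser capture microdissection, a method that lifts a marked area of a section, so that a library holds RNA of all cells in that area. Libraries were made from 15 ng of total RNA, indexed, pooled and sequenced on 3 flow cells; the labels assign no library to a flow cell or to an animal. P-values therefore measure the spread between libraries, and if both regions came from the same brains the test treats them as independent.

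The dorsal striatum is the input stage of the basal ganglia and consists mostly of GABAergic projection neurons. In the classical scheme the direct pathway is marked by D1 dopamine receptors, dynorphin and substance P, and the indirect pathway by D2 dopamine receptors, an adenosine receptor and enkephalin. The medial part receives mainly associative cortical input and is known for its part in goal-directed learning, the lateral part receives mainly sensorimotor input and is known for habits and skilled movement. Foxp2 encodes a forkhead transcription factor of these projection neurons, and the humanised allele carries the amino acid changes that arose in the human lineage after its split from that of the chimpanzee.

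The libraries of Foxp2hum/hum DMS held 21406543.0 to 29698255.0 (median 24360744.0) recovered reads each and those of DLS 19475081.0 to 30490296.0 (median 22845538.0). Mitochondrially encoded genes took 22.4% ± 3.84 (SD, n = 12) of the reads in DMS and 24.8% ± 2.87 (SD, n = 12) in DLS, so the ranges overlapped. Of 25259 genes in the table, 19561 had a mean normalised read count of at least 10 over all libraries and were tested. No pair of libraries within a region agreed within sampling noise. On the first principal component of the 24 libraries, which held 21.2% of the variance, all 12 DMS libraries lay between 24.9 and 51.2 and all 12 DLS libraries between -45.4 and -25.3. The second component, with 19.3%, split each region, with libraries 60 (DLS) and 64 (DMS) at one end and library 94 (DLS) at the other.

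The 3 genes that mark the subdivisions separated the regions in every library. Crym encodes mu-crystallin, a cytosolic protein that binds thyroid hormone. Its normalised read count ran from 2570 to 4135 (median 3490) in DMS and from 232 to 515 (median 301) in DLS. The means were 3391 ± 521 in DMS and 314 ± 77.03 in DLS (± SD, n = 12 in each region here and below), a log2 difference (DMS minus DLS, on the log2(value + 1) scale) of 3.44 (SE 0.13) with adjusted p = 1.75e-26. Pdyn encodes prodynorphin, the precursor of the dynorphin opioid peptides of direct pathway neurons. Its values ran from 1893 to 2868 (median 2159) in DMS and from 578 to 953 (median 702) in DLS, with a log2 difference of 1.60 (SE 0.09) and adjusted p = 1.91e-20. Cnr1 encodes the CB1 cannabinoid receptor, which sits on axon terminals and dampens transmitter release. It went the other way, from 1125 to 1847 (median 1550) in DMS and from 9833 to 14503 (median 10902) in DLS, with means of 1536 ± 183 in DMS and 11369 ± 1347 in DLS, a log2 difference of -2.89 (SE 0.10) and adjusted p = 7.05e-27. In none of these 3 genes did a DMS library reach into the range of the DLS libraries, so the labelled regions matched their markers. The genes lie on mm9 at chr7:127329894-127345625 (Crym), chr2:129512301-129525580 (Pdyn) and chr4:34011568-34035806 (Cnr1).

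Foxp2, the humanised gene itself (chr6:14851349-15391977), was transcribed in both regions. Its count ran from 1147 to 1784 (median 1287) in DMS and from 752 to 1447 (median 1019) in DLS, so the ranges overlapped in part. The means were 1332 ± 193 in DMS and 1040 ± 221 in DLS, a log2 difference of 0.37 (SE 0.11) with adjusted p = 0.00931; in wild-type the log2 difference was 0.28 (adjusted p = 0.0743). With Ttr, a choroid plexus gene described further on, as a covariate, Foxp2 did not pass (adjusted p = 0.278). Read counts of a whole gene do not tell the humanised allele from the mouse allele, so this value checks no genotype label. Of its relatives, Foxp4 was higher in DMS at 269.8 ± 48.8 in DMS and 208 ± 65.6 in DLS (adjusted p = 0.0249); without DLS library 42 its adjusted p was 0.0628, and with Ttr as a covariate 0.22. Foxp1 had 3722 ± 801 in DMS and 4424 ± 1238 in DLS and did not pass (adjusted p = 0.349); an overlapping gene reaches 10.4% of its value.

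**Figure D1:**
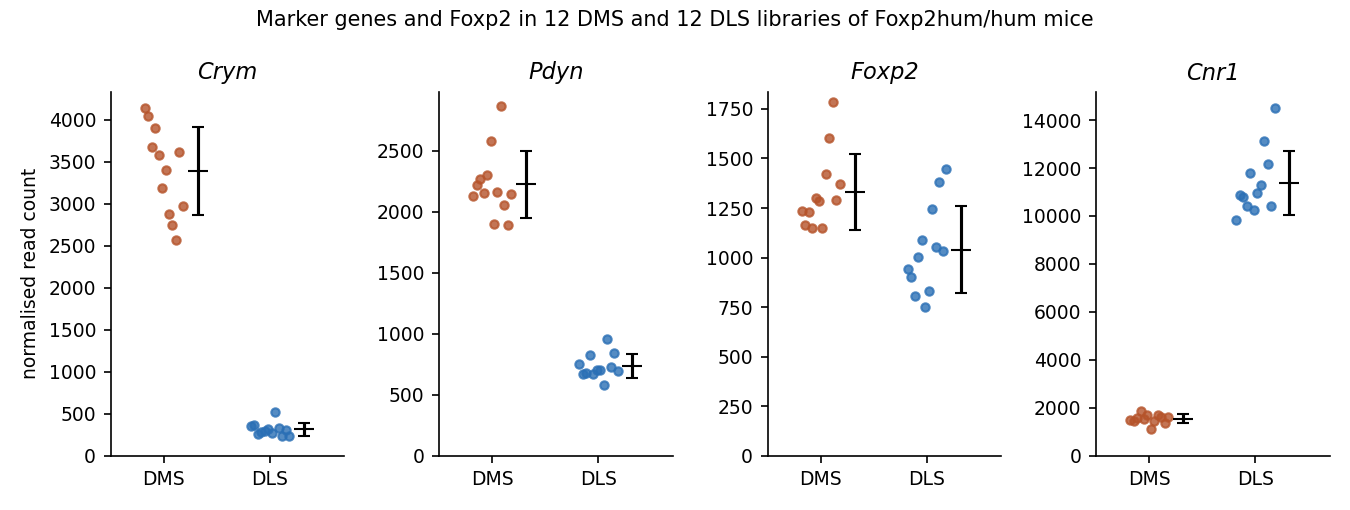
Normalised read count (linear axis) of Crym, Pdyn, Foxp2 and Cnr1, one panel a gene; each point is 1 of 12 DMS or 12 DLS libraries of Foxp2hum/hum mice, and bars give the mean ± SD. Points of the 2 regions do not overlap for Crym, Pdyn and Cnr1, and do overlap for Foxp2.

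Across all genes, 3550 of 19561 passed an adjusted p of 0.05 between DMS and DLS of Foxp2hum/hum mice (18.1%). Of these, 1825 were higher in DMS (9.33% of genes tested) and 1725 lower (8.82%). Scaling to reads outside mitochondrial genes moved the median log2 difference of all genes by 0.13 and turned this split into 2388 higher and 665 lower. Most called differences were small: 1925 of the 3550 were under 1.5-fold. The large ones leaned to DMS, with 540 genes more than 2-fold higher and 221 more than 2-fold lower, and 176 against 34 beyond 4-fold. The 12 libraries of one region lay wholly above or below the 12 of the other for 431 genes (2.2%), 207 higher in DMS and 224 lower. All 431 also passed, with the same sign, between the regions of wild-type mice, where 3377 genes passed in all (17.3%).

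**Figure D2:**
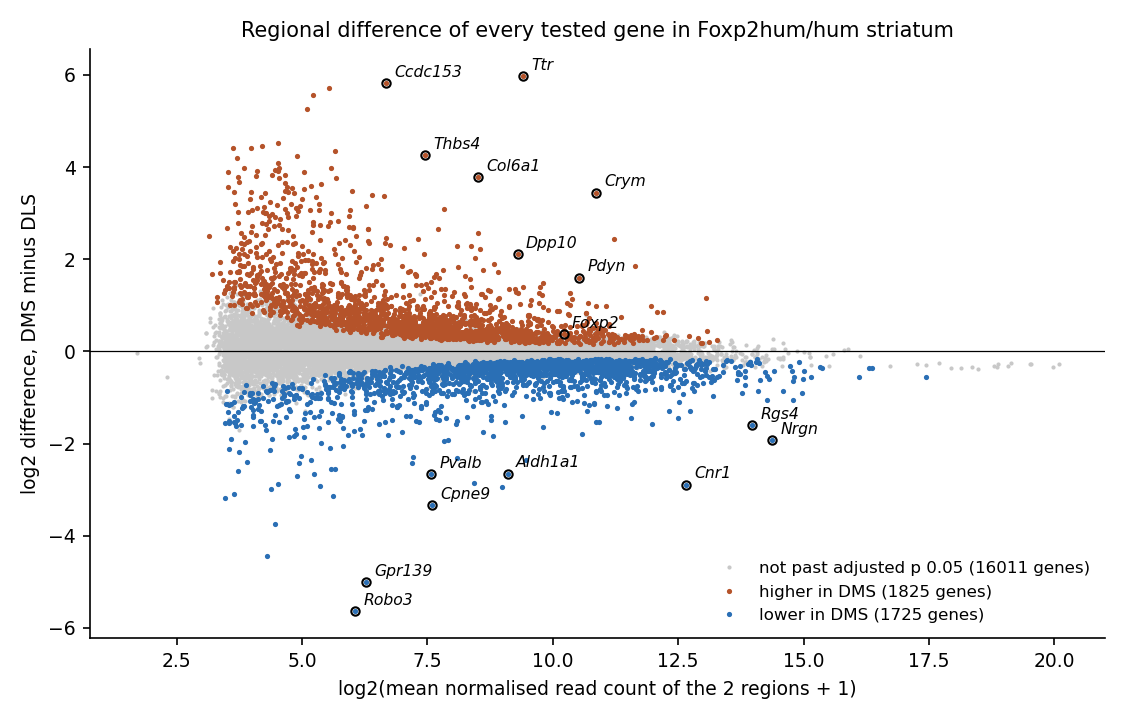
Regional difference of all 19561 tested genes in Foxp2hum/hum striatum: the x axis is the log2 of the mean normalised read count plus 1, the y axis the log2 difference (DMS minus DLS), and colours mark genes past an adjusted p of 0.05. Points far above 0 outnumber points far below it, Robo3 and Gpr139 lie lowest, and Cnr1, Nrgn and Rgs4 are abundant genes below 0.

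Among genes that separated the regions in every library and whose mean reached 50 in the higher one, those with the largest differences towards DMS were mostly genes of motile cilia. Ccdc153, a coiled-coil protein gene of ciliated cells, ran from 89.2 to 326 (median 167) in DMS and from 0 to 27.9 (median 1.67) in DLS, a log2 difference of 5.82 (SE 0.41). Tmem212, a membrane protein gene of the same cells, had 90.1 ± 58.2 in DMS and 0.901 ± 1.83 in DLS (log2 difference 5.72 (SE 0.37)), with a small RNA on its span that reaches 12.7% of its value. Ccdc135, Cdhr4, Fam183b and Dynlrb2, the last a light chain of dynein, had log2 differences of 5.26, 3.89, 4.24 and 3.99. The other 2 of the leading 8 encode matrix proteins. Thbs4, the gene of the secreted glycoprotein thrombospondin 4, ran from 105 to 596 (median 285) in DMS and from 0.967 to 30.6 (median 18.6) in DLS (log2 difference 4.25 (SE 0.33)), and Col6a1, which encodes a chain of collagen VI, ran from 489 to 1117 (median 652) in DMS and from 26.7 to 76.3 (median 47.7) in DLS (log2 difference 3.78 (SE 0.22)). Both had over 100 counts in every DMS library and under 100 in every DLS library.

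Towards DLS the genes with the largest differences were of several kinds. Robo3, a member of the Roundabout family of axon guidance receptors, ran from 0 to 10.7 (median 1.42) in DMS and from 90.2 to 219 (median 119.7) in DLS, so that it was close to absent from DMS; its log2 difference was -5.63 (SE 0.35). Gpr139, an orphan receptor, ran from 0 to 13.5 (median 5.42) in DMS and from 67.1 to 299 (median 138) in DLS, and its log2 difference was -5.00 (SE 0.49). Cpne9, a copine that binds membranes in the presence of calcium, had 34.7 ± 11.1 in DMS and 350.3 ± 107 in DLS (log2 difference -3.34 (SE 0.23)). Pvalb, the parvalbumin gene of fast-spiking interneurons, ran from 24.3 to 95.2 (median 44.7) in DMS and from 159.9 to 604 (median 275) in DLS, with a log2 difference of -2.67 (SE 0.20). Aldh1a1, which makes retinoic acid from retinal, ran from 102 to 215 (median 148) in DMS and from 677 to 1251 (median 936) in DLS (log2 difference -2.65 (SE 0.14)). The ligands Wnt8b and Fgf16 had low counts in both regions, 10.3 ± 6.90 in DMS and 85.4 ± 27.1 in DLS and 10.04 ± 7.01 in DMS and 70.3 ± 21.9 in DLS, with log2 differences of -3.15 and -2.92.

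Where the higher region reached a mean of 1000, the genes led by Crym towards DMS were of several kinds. Dpp10, an auxiliary subunit of Kv4 potassium channels, had 1021 ± 115 in DMS and 237 ± 40.05 in DLS. Zcchc12, a zinc finger transcriptional cofactor, had 1306 ± 211 in DMS and 468 ± 94.8 in DLS, and Wfs1, the endoplasmic reticulum protein gene mutated in Wolfram syndrome, 1239 ± 289 in DMS and 472 ± 119.7 in DLS. Cadm1, an adhesion molecule of synapses, had 1829 ± 249.6 in DMS and 765 ± 158 in DLS. Man1a, a mannosidase that trims N-glycans, had 1222 ± 128 in DMS and 527 ± 117 in DLS. Id4, an inhibitor of basic helix-loop-helix factors, had 1191 ± 168 in DMS and 495 ± 59.3 in DLS; a transcript on the same span reaches 45% of its value, and the counting of overlapping genes is not known to use strand. Their log2 differences were 2.12, 1.49, 1.39, 1.27, 1.23 and 1.26, in that order.

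Abundant genes towards DLS included several that act at or near the synapse. Nrgn encodes neurogranin, a postsynaptic protein that binds calmodulin, and ran from 6921 to 10769 (median 8590) in DMS and from 22089 to 40581 (median 34666) in DLS (log2 difference -1.93 (SE 0.09)). Rgs4, which shortens signalling through Gq and Gi, ran from 5709 to 10599 (median 7766) in DMS and from 21141 to 26845 (median 23833) in DLS (log2 difference -1.60 (SE 0.08)). Me2, the mitochondrial malic enzyme, had 234 ± 45.6 in DMS and 1183 ± 184 in DLS (log2 difference -2.35). Sema7a, a membrane-bound semaphorin, had 684 ± 91.8 in DMS and 2376 ± 387 in DLS (log2 difference -1.79). Mme, the peptidase neprilysin, which degrades enkephalin among other peptides, had 435 ± 93.2 in DMS and 1352 ± 302 in DLS (log2 difference -1.63). Kctd17 and the receptor-like gene Gpr155 had log2 differences of -1.57 and -1.52. These genes were chosen among those whose libraries do not overlap between the regions.

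**Figure D3:**
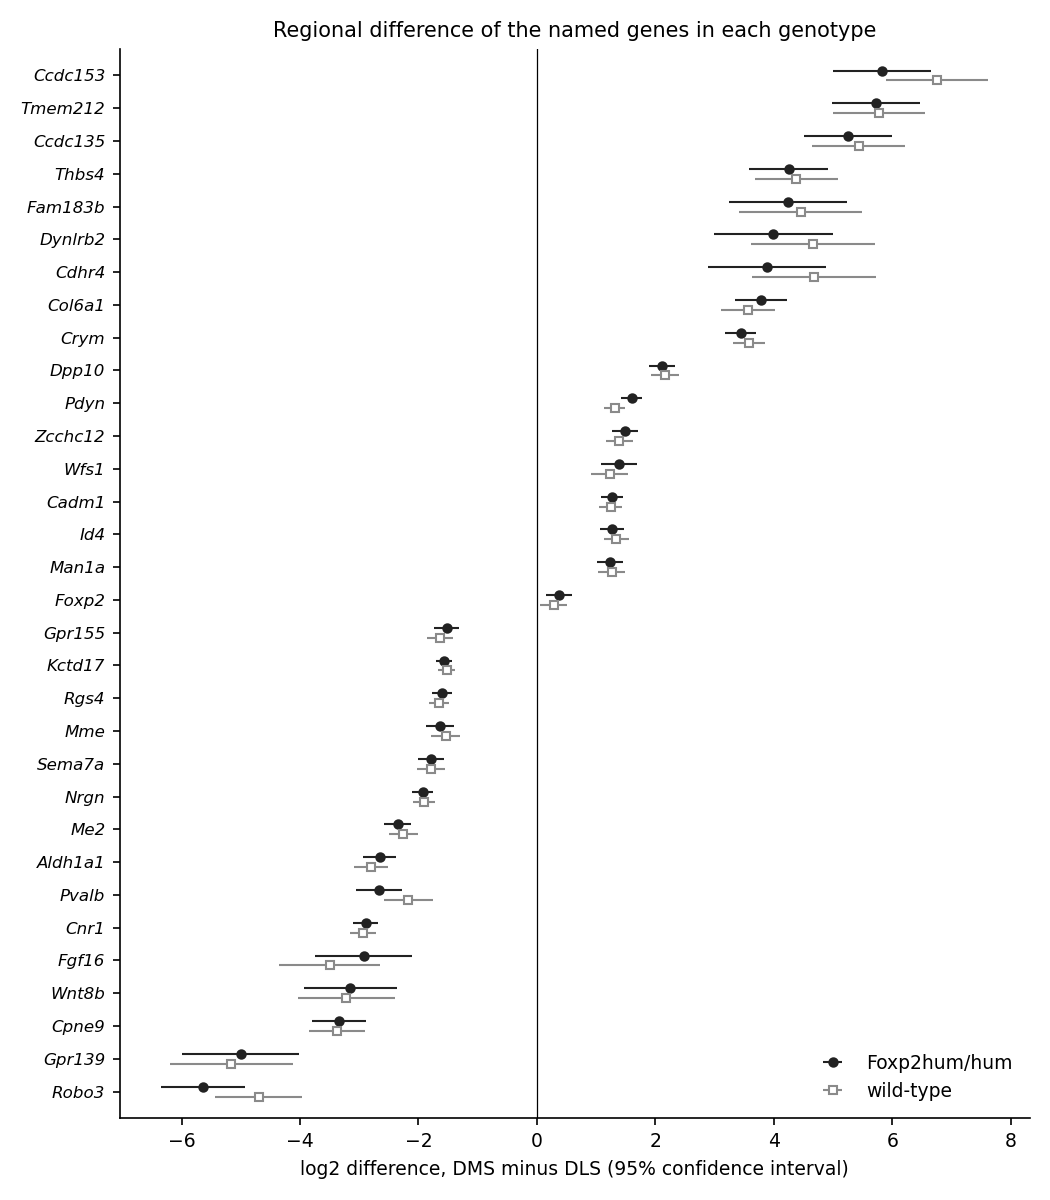
Log2 difference (DMS minus DLS) with its 95% confidence interval for the marker genes, Foxp2 and the leading genes, filled circles for Foxp2hum/hum and open squares for wild-type. Both genotypes lie on the same side of 0 for each of the 32 genes.

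Gene lists by function were then read against the share of all genes that passed. That share was 18.1% in either direction, 9.33% higher in DMS and 8.82% lower. Of 15 neuropeptide precursors tested, 5 were higher in DMS and 2 lower (46.7% called). Beside Pdyn, Nts (neurotensin) was higher in DMS at 490.3 ± 259.7 in DMS and 159 ± 60.9 in DLS, and its regions overlapped. Cck was lower at 146 ± 59.2 in DMS and 244 ± 103 in DLS but did not pass with scaling to reads outside mitochondrial genes (adjusted p = 0.0576) or with Ttr as a covariate (adjusted p = 0.256). Penk, the enkephalin precursor of indirect pathway neurons, had 25683 ± 2767 in DMS and 25012 ± 3647 in DLS and did not pass (adjusted p = 0.751); its 95% interval ran from -0.11 to 0.20 on the log2 scale, and with quantile normalisation it passed at 0.39 (adjusted p = 0.0168). Tac1, the substance P precursor of direct pathway neurons, had 5160 ± 1020 in DMS and 6371 ± 2058 in DLS and did not pass either (adjusted p = 0.233). Of 4 opioid receptor genes, Oprk1, the kappa receptor on which dynorphin acts, was higher in DMS at 363 ± 63.3 in DMS and 189.9 ± 62.03 in DLS, and Oprd1, the delta receptor, was lower at 135 ± 52.1 in DMS and 248 ± 95.03 in DLS. Oprm1, the mu receptor, did not pass, and a longer gene on its span exceeds its value.

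In the endocannabinoid list of 10 genes, 3 were lower in DMS and none higher, 30% of the list against 18.1% of all genes. With Cnr1 went Dagla, the enzyme that makes 2-arachidonoylglycerol, at 734 ± 163 in DMS and 1494 ± 417 in DLS (log2 difference -1.01). Faah, which breaks down anandamide, had 147 ± 22.7 in DMS and 206 ± 27.8 in DLS (log2 difference -0.49), and did not pass with scaling to reads outside mitochondrial genes (adjusted p = 0.0688). The ranges of Dagla and Faah overlapped between the regions, that of Cnr1 did not.

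The dopamine, adenosine and cAMP pathway of the projection neurons was mostly lower in DMS with the deposited scaling. Of 19 genes of projection neuron dopamine and cAMP signalling, 11 were lower and 4 higher (79% called), with a median log2 difference of -0.32 against 0.02 over all genes. With scaling to reads outside mitochondrial genes, 4 of the 19 were lower and 4 higher, and with quantile normalisation 3 were lower and 4 higher. Drd2, the dopamine receptor of the indirect pathway, ran from 3827 to 5313 (median 4654) in DMS and from 6161 to 9209 (median 7437) in DLS (log2 difference -0.69 (SE 0.07)). Adora2a, the adenosine receptor of the same cells, ran from 3772 to 6163 (median 4852) in DMS and from 6865 to 10063 (median 7450) in DLS (log2 difference -0.68 (SE 0.08)). Both separated every library. Drd1a, the dopamine receptor of the direct pathway, had 3394 ± 397 in DMS and 4189 ± 516 in DLS and overlapped between regions (log2 difference -0.30 (SE 0.08)). Rasd2, the small GTPase Rhes, and Pde10a, the striatal phosphodiesterase, were lower at 10841 ± 1126 in DMS and 18184 ± 2811 in DLS and 14124 ± 3212 in DMS and 21630 ± 5280 in DLS. Pde1c, a calmodulin-dependent phosphodiesterase, was higher in every DMS library, at 577 ± 123 in DMS and 306 ± 74.99 in DLS. Of 13 RGS proteins 4 were higher and 3 lower (54% called): Rgs14 was higher at 1188 ± 113 in DMS and 607 ± 80.2 in DLS, opposite to Rgs4, and Rgs9, the striatal form that acts on D2 receptor signalling, was lower at 6049 ± 414 in DMS and 7732 ± 615 in DLS. With scaling to reads outside mitochondrial genes, and also with quantile normalisation, Drd1a, Pde10a and Rgs9 kept their sign but did not pass; with the former the adjusted p-values were 0.364, 0.0514 and 0.123.

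Of 10 general markers of striatal projection neurons, 7 were lower in DMS and none higher (70% called), and 4 of 10 were lower with scaling to reads outside mitochondrial genes. With quantile normalisation 3 were lower and 1 higher. Ppp1r1b, which encodes DARPP-32, a phosphatase inhibitor that acts downstream of dopamine receptors in both kinds of projection neuron, ran from 21733 to 35237 (median 29403) in DMS and from 29675 to 52575 (median 43853) in DLS, and did not pass with quantile normalisation (adjusted p = 0.339). A gene on the span of Ppp1r1b reaches 79.1% of its value, so the count may not be that of Ppp1r1b alone. The summed count of these 10 markers ran from 91905 to 122975 (median 115763) in DMS and from 142353 to 169595 (median 160652) in DLS, without overlap. In bulk tissue, fewer cells of a type and less RNA per cell cannot be told apart.

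**Figure D4:**
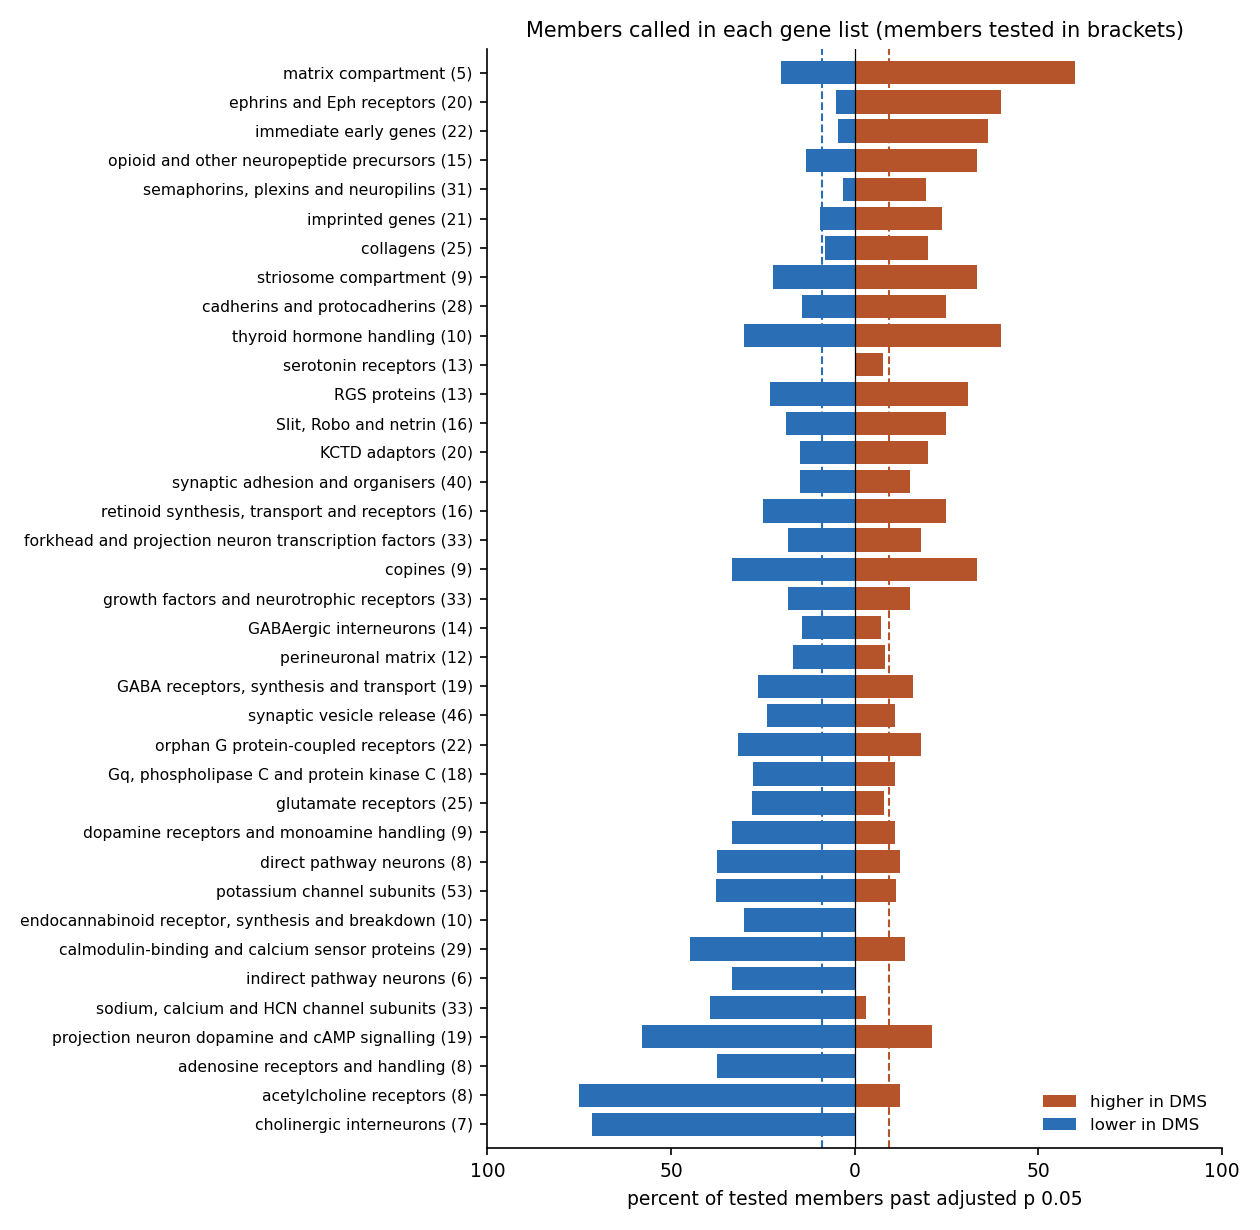
Percent of tested members past an adjusted p of 0.05 in each list of a pathway, gene family or neuron class with at least 5 tested members, higher in DMS to the right and lower to the left. Lists of other cell types and of the general striatal projection neuron markers are left out. Dashed lines mark 9.33% and 8.82%, the shares over all genes tested. Lists of acetylcholine and cholinergic neuron genes extend furthest to the left, and matrix compartment, thyroid hormone and ephrin genes furthest to the right.

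Interneuron genes differed by class. Of 7 cholinergic interneuron genes, 5 were lower in DMS and none higher, and 5 of 7 were lower with scaling to reads outside mitochondrial genes. Chat, which makes acetylcholine, ran from 192 to 377 (median 288) in DMS and from 334 to 615 (median 479.5) in DLS (log2 difference -0.73 (SE 0.12)). Slc5a7, the choline transporter, had 355 ± 62.5 in DMS and 600.5 ± 132 in DLS and separated every library. Of 8 acetylcholine receptor genes, 6 were lower and 1 higher (87.5% called). The muscarinic receptors Chrm3 and Chrm2 were lower at 25.2 ± 19.5 in DMS and 85.1 ± 32.9 in DLS and 73.7 ± 22.1 in DMS and 132 ± 30.9 in DLS, the latter with an overlapping transcript that reaches 24% of its value. The nicotinic subunit gene Chrna4 was higher at 203 ± 37.5 in DMS and 119.9 ± 44.6 in DLS. Of 14 GABAergic interneuron genes, 2 were lower, Pvalb and the Kv3 channel gene Kcnc2 (59.02 ± 21.5 in DMS and 96.4 ± 28.6 in DLS), and 1 was higher. The share called was 21.4% of this list, near the 18.1% of all genes, and 71.4% of the cholinergic interneuron list.

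Ion channel genes called between the regions were more often lower in DMS than higher. Of 53 potassium channel subunits, 20 were lower in DMS and 6 higher, or 13 and 7 with scaling to reads outside mitochondrial genes. Kcnk2, a leak channel, ran from 1662 to 2135 (median 1893) in DMS and from 3564 to 5987 (median 4055) in DLS (log2 difference -1.14 (SE 0.06)). Kcna5, a Kv1 channel, went towards DMS with Dpp10, at 668 ± 145 in DMS and 307 ± 110.4 in DLS. Of 33 sodium, calcium and HCN channel subunits, 13 were lower and 1 higher, or 6 and 2 with that scaling. Scn1a, Scn4b and Cacnb3, which encode a sodium channel alpha subunit, a sodium channel beta subunit and a calcium channel beta subunit, were lower at 665 ± 112 in DMS and 1289 ± 262 in DLS, 12421 ± 2120 in DMS and 22622 ± 3780 in DLS and 1419 ± 126 in DMS and 2516 ± 297 in DLS. Of 25 glutamate receptor genes 7 were lower and 2 higher, and of 19 genes of GABA receptors, synthesis and transport 5 were lower and 3 higher. With scaling to reads outside mitochondrial genes these became 3 lower and 2 higher of the glutamate receptor genes, and 1 lower and 3 higher of the GABA genes (2 and 3 with quantile normalisation). Gabra4 was lower (2839 ± 309.7 in DMS and 4018 ± 310.2 in DLS) and Gabra5 higher (485 ± 79.2 in DMS and 261 ± 52.2 in DLS), and a transcript on the span of Gabra5 reaches 53% of its value. With the deposited scaling 49.1% of the potassium channel list and 42.4% of the other channel list were called. It was 36% of the glutamate receptor list and 42.1% of the GABA list, against 18.1% of all genes.

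Calcium-handling proteins moved in both directions. Of 29 calmodulin-binding and calcium sensor genes, 13 were lower and 4 higher (58.6% called), or 7 and 5 with scaling to reads outside mitochondrial genes. Hpca, the calcium sensor hippocalcin, was lower at 22223 ± 2601 in DMS and 41624 ± 5875 in DLS, while the related Hpcal4 was higher at 11685 ± 2503 in DMS and 5309 ± 1435 in DLS. Gap43, a growth cone protein that binds calmodulin as Nrgn does, ran from 3621 to 4978 (median 4013) in DMS and from 2525 to 3564 (median 2909) in DLS. The 9 copines split evenly with 3 higher and 3 lower (66.7% called). Cpne6 ran from 532 to 743 (median 609.8) in DMS and from 70.6 to 154 (median 102) in DLS (log2 difference 2.58 (SE 0.14)), against Cpne9 and Cpne7 towards DLS (log2 differences -3.34 and -1.53). The KCTD adaptors, several of which attach to GABA-B receptors or ubiquitin ligases, had 4 of 20 higher and 3 lower (35% called), or 3 and 4 with Ttr as a covariate. Kctd8, one of those that attach to GABA-B receptors, had 455 ± 79.4 in DMS and 150.1 ± 44.3 in DLS, and Kctd17 had 2024 ± 201.4 in DMS and 6013 ± 607 in DLS.

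Retinoid and thyroid hormone genes, both of which feed nuclear receptors, also split. Of 16 retinoid genes, 4 were lower and 4 higher (50% called). Rxrg, a retinoid X receptor of striatal neurons, ran from 2484 to 3519 (median 2878) in DMS and from 6440 to 8129 (median 7221) in DLS (log2 difference -1.30 (SE 0.07)). It was lower together with Aldh1a1 and with Dhrs3, which turns retinal back to retinol (279.6 ± 44.3 in DMS and 521 ± 90.4 in DLS). Stra6, the membrane receptor for retinol-binding protein, was higher at 224 ± 73.1 in DMS and 77.7 ± 46.1 in DLS; an overlapping gene reaches 15% of its value. Of 10 thyroid hormone genes 4 were higher and 3 lower (70% called). Dio2, which activates the hormone, was lower at 873 ± 343 in DMS and 1508 ± 489 in DLS (log2 difference -0.85), and Klf9, a gene known to respond to the hormone, was lower at 2481 ± 720.4 in DMS and 4101 ± 889.8 in DLS. Thra, a receptor gene, was higher at 8433 ± 452 in DMS and 6896 ± 579.6 in DLS, and a gene on its span reaches 50% of its value. Crym was higher, and Ttr, the carrier protein described with the choroid plexus genes below, was also among the 4.

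Of 33 forkhead and projection neuron transcription factors, 6 were higher and 6 lower, 36.4% of the list against 18.1% of all genes. Meis1, a homeobox factor, was lower at 116 ± 27.5 in DMS and 282 ± 50.7 in DLS and separated every library, and Mef2c was higher at 1534 ± 275 in DMS and 1068 ± 234 in DLS but lost its call once Ttr was a covariate (adjusted p = 0.0684). Markers of the 2 histochemical compartments of the striatum did not follow one side: of 9 striosome genes 3 were higher and 2 lower, and of 5 matrix genes 3 were higher and 1 lower. The share called was 55.6% of the striosome list and 80% of the matrix list. Calb1, the calbindin gene of the matrix, was higher at 3914 ± 571 in DMS and 3131 ± 513 in DLS, and Rasgrp2, a matrix-enriched exchange factor, was lower at 2346 ± 252 in DMS and 4126 ± 271 in DLS, with an overlapping gene at 26% of its value. Kremen1, a striosome marker, was lower at 339 ± 80.5 in DMS and 628 ± 126 in DLS.

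Ephrin and semaphorin genes called between the regions were more often higher in DMS than lower. Of 20 ephrin and Eph receptor genes, 8 were higher and 1 lower (6 and 1 with Ttr as a covariate): Epha8 ran from 226 to 376 (median 288) in DMS and from 37.7 to 219.6 (median 92.7) in DLS, and Ephb6 was lower at 513 ± 59.6 in DMS and 1052 ± 177 in DLS. Of 31 semaphorins, plexins and neuropilins, 6 were higher and 1, Sema7a, lower. In all 22.6% of that list was called, near the 18.1% of all genes, against 45% of the ephrin and Eph receptor list. Plxnc1, which is the receptor of Sema7a, was higher in every DMS library, at 372 ± 80.4 in DMS and 181 ± 26.6 in DLS. Ligand and receptor of that pair were thus on opposite sides. In the Slit, Robo and netrin list, 4 of 16 were higher and 3 lower, or 1 and 2 with Ttr as a covariate. The ligands Slit1 and Slit2 were higher at 103 ± 42.5 in DMS and 50.3 ± 21.2 in DLS and 82.02 ± 29.4 in DMS and 30.2 ± 10.4 in DLS, whereas Robo2 was lower at 1235 ± 222 in DMS and 1859 ± 384 in DLS with Robo3. With Ttr as a covariate Slit1 did not pass (adjusted p = 0.0792). Of 28 cadherins and protocadherins 7 were higher and 4 lower, with Pcdh10 higher at 2237 ± 379 in DMS and 1095 ± 268 in DLS and Cdh9 lower at 207 ± 36.4 in DMS and 471 ± 58.9 in DLS. With Ttr as a covariate 2 of the 28 were higher and 3 lower, and 3 of the 31 semaphorins, plexins and neuropilins higher and 1 lower. Of 40 synaptic adhesion genes 6 were higher and 6 lower, and the teneurin gene Odz2 was higher at 1129 ± 245 in DMS and 562 ± 193 in DLS. The share called was 30% of this list, 39.3% of the cadherin list and 43.8% of the Slit, Robo and netrin list.

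Of 46 genes of vesicle release, 11 were lower and 5 higher, or 6 and 8 with scaling to reads outside mitochondrial genes. With the deposited scaling 34.8% of this list was called, against 18.1% of all genes. It was 33.3% of the growth factor, 28% of the collagen and 33.3% of the imprinted gene lists that follow. Syt10, a synaptotagmin, ran from 50.4 to 154 (median 104) in DMS and from 0 to 43.8 (median 11.5) in DLS (log2 difference 3.06 (SE 0.33)), and Rph3a, the Rab3 effector rabphilin, was lower at 1989 ± 338 in DMS and 4285 ± 979.6 in DLS. Of 33 growth factors and neurotrophic receptors 5 were higher and 6 lower (8 and 6 with scaling to reads outside mitochondrial genes); Wnt2 and Wnt7a were higher in every DMS library, at 263 ± 70.2 in DMS and 99.1 ± 17.2 in DLS and 241 ± 46.5 in DMS and 98.7 ± 28.6 in DLS, and Fgf9 was lower at 168 ± 22.2 in DMS and 279.5 ± 52.99 in DLS. Of 25 collagens 5 were higher and 2 lower, or 4 and 4 with quantile normalisation. Col6a2, a partner chain of Col6a1, was higher at 96.2 ± 19.5 in DMS and 53.8 ± 21.4 in DLS. Of 21 imprinted genes 5 were higher and 2 lower, among them Nnat, a small membrane proteolipid gene, at 4019 ± 809.7 in DMS and 744 ± 166 in DLS; Nnat lies within another gene whose count exceeds its own. Serotonin receptors stayed below the background: 1 of 13 passed (7.69%), Htr6 at 94.6 ± 20.9 in DMS and 56.1 ± 21.6 in DLS. With quantile normalisation, and with scaling to reads outside mitochondrial genes, 2 of 13 passed.

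Immediate early genes, which neurons transcribe within minutes of activity, were higher in DMS for 8 of 22 and lower for 1. The share called was 40.9%, against 18.1% of all genes. None of the 8 separated the libraries. Fosb, a partner in the AP-1 transcription factor, ran from 94.2 to 567 (median 338) in DMS and from 52.1 to 225 (median 113) in DLS, and Egr2, a zinc finger factor, had 326 ± 202 in DMS and 131 ± 91.2 in DLS. The ranges of Fosb overlapped, with the lowest DMS libraries inside the range of DLS.

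Markers of cells that border the medial striatum moved with the region. The DMS lies beside the wall of the lateral ventricle, which is lined by ciliated ependymal cells; beneath them lie progenitors that give rise to neuroblasts, and the choroid plexus floats in the ventricle. Of 16 ependymal and motile cilia genes, 14 were higher in DMS and none lower, with a median log2 difference of 2.92; 9 of them separated every library, against 2.2% of all genes. Foxj1, the transcription factor of motile cilia, ran from 104 to 398 (median 189) in DMS and from 44.95 to 95.99 (median 57.00) in DLS. The summed count of the 16 ran from 4013 to 10712 (median 6472) in DMS and from 2518 to 8211 (median 4852) in DLS, so the sums overlapped. Of 14 neuroblast and progenitor genes, 11 were higher and 1 lower, with a median of 2.26, and 9 separated every library, again against 2.2%. Dcx, the microtubule protein of migrating neuroblasts, ran from 149 to 845 (median 312) in DMS and from 34.7 to 119 (median 46.7) in DLS, and the division markers Mki67 and Top2a had 152 ± 81.8 in DMS and 13.9 ± 7.75 in DLS and 179 ± 90.4 in DMS and 16.2 ± 9.46 in DLS. Their summed count ran from 1877 to 5511 (median 3187) in DMS and from 1206 to 1606 (median 1392) in DLS. Of 7 choroid plexus genes tested, 3 were higher: Ttr, the plexus product transthyretin, ran from 1.06 to 6160 (median 659) in DMS and from 0 to 79.7 (median 1.78) in DLS, and Folr1 from 1.92 to 67.6 (median 19.6) in DMS and from 0 to 8.51 (median 0) in DLS. The summed count of the 12 choroid plexus genes ran from 2087 to 11266 (median 3029) in DMS and from 1617 to 2253 (median 1906) in DLS. The share called was 87.5% of the ependymal, 85.7% of the neuroblast and 42.9% of the choroid plexus list, against 18.1% of all genes. The part of these cells in the genes above that were higher in DMS was not tested. With the log2 count of Ttr as a covariate 2279 genes passed, 1150 higher and 1129 lower, and with Ttr and Ccdc153 together 348.

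Of the other cell classes, several had no called gene and astrocytes had genes called in both directions. None of 12 oligodendrocyte genes, 10 microglial, 8 endothelial, 6 mural and 5 blood genes passed. Of 12 astrocyte genes 2 were higher and 3 lower (2 and 2 with scaling to reads outside mitochondrial genes): Gfap was higher at 752 ± 313 in DMS and 367 ± 114 in DLS, with an overlapping transcript counted above it, and Gja1, the gap junction protein, was higher at 2285 ± 366 in DMS and 1750 ± 351 in DLS. S100b was lower at 1298 ± 169 in DMS and 2407 ± 341 in DLS, and a gene on its span exceeds its value. Of 6 cortical projection neuron genes 1 was higher, and Slc17a7, the glutamate transporter of cortical neurons, ran from 28.8 to 215 (median 95.6) in DMS and from 40.2 to 864 (median 148) in DLS and did not pass (adjusted p = 0.234). Of 8 fibroblast and leptomeningeal genes 2 were lower, and none with that scaling. The share called was 41.7% of the astrocyte, 25% of the fibroblast and 16.7% of the cortical list, against 18.1% of all genes.

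Since the ependymal genes moved together, the bases before their start sites were read from the RefSeq promoter table (GRCm38.p6). Of the 16 listed genes, 11 had an entry. The 250 bases before a start were searched on both strands for the half-site of the X-box, GTTGCC, the element that RFX factors bind at genes of cilia, and for the forkhead core TGTTTAC of the family to which Foxj1 and Foxp2 belong. The X-box letters occurred in 7 of the 11 genes and in 10.4% of all 32851 promoters; the forkhead core occurred in 2 of the 11 and in 3.17% of promoters. Neither was found before the starts of Pdyn and Cnr1. Another motif, the CRE half-site TGACG, was searched too. Its letters occurred before Enkur, Mlf1 and Tekt1 among the 11 genes and in 17.8% of all promoters. The X-box and forkhead letters do not overlap in these windows. A match is a run of letters and not a shown binding site, and the motifs were chosen with the expression values known. The windows of the 2 ciliary genes with the largest difference and a match are given 5′ to 3′ on the gene's strand, with X-box half-sites in capitals.
Ccdc153, chr9:44240427-44240676 (plus strand): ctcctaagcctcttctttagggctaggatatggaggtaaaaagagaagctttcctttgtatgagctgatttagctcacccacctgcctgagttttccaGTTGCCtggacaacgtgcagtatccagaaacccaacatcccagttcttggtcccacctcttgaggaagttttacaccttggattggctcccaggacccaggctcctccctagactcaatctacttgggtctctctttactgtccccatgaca
Dynlrb2, chr8:116504765-116505014 (plus strand): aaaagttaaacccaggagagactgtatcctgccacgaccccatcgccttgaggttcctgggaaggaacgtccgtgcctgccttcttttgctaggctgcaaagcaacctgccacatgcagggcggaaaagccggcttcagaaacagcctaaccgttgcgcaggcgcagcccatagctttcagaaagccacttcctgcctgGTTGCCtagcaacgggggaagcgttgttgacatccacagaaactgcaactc

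The regional differences of Foxp2hum/hum mice were next set against those of wild-type mice gene by gene. No gene passed the test of the difference between the genotypes' regional differences (0.0% of 19561). An unadjusted p under 0.05 was reached by 321 genes with limma, 276 with edgeR and 324 with DESeq2, and none passed adjustment with either. Each count is below the share of 0.05 of all genes that such a threshold passes on average where no gene differs. Why the counts fall short was not tested, and the shortfall does not measure how alike the genotypes are. Crym had a log2 difference of 3.44 in Foxp2hum/hum and 3.59 in wild-type, Cnr1 -2.89 and -2.93, and Pdyn 1.60 and 1.31. Among the leading genes, Robo3 had -5.63 and -4.70, and Pvalb -2.67 and -2.17. Only genes called between the regions in Foxp2hum/hum were ranked by the unadjusted p of the difference between the genotypes. Those with the smallest were Ctcfl (0.63 against -0.35), Siah1b (0.35 against -0.21) and Sncg (1.71 against 0.19) in one direction. In the other they were Fhad1 (1.08 against 2.18), Neurl3 (-1.06 against 0.18) and Vasp (0.51 against 1.03); overlapping transcripts reach 20.9% of the value of Fhad1 and 19.2% of that of Vasp. The regional call of Siah1b in Foxp2hum/hum was lost without any 1 of DLS libraries 11, 60 and 94 and DMS libraries 45, 64, 67 and 90 (adjusted p 0.05 to 0.0652), and that of Neurl3 without DMS library 4 or 31 (adjusted p 0.0608 and 0.0518). With Ttr as a covariate the regional calls of Fhad1, Neurl3, Siah1b and Vasp were lost (adjusted p 0.142, 0.0628, 0.205 and 0.12), and with quantile normalisation those of Ctcfl and Siah1b (adjusted p 0.0721 and 0.132). edgeR on recovered reads did not call Neurl3 (adjusted p = 0.0684). A p that misses the threshold does not show that the genotypes act alike. The 95% interval of the regional difference within Foxp2hum/hum lay within 1.5-fold in both directions for 60.5% of genes. That share does not give the precision of the comparison between genotypes, whose SE was larger. For Crym it was 0.1875 against 0.1297 for the regional difference in Foxp2hum/hum, and for Cnr1 0.1518 against 0.105.

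Within each region the libraries of Foxp2hum/hum mice were not uniform. Xist, the RNA of the inactive X chromosome in females, and Ddx3y, a gene of the Y chromosome, divided each region in the same way. In DMS, 6 libraries had Xist between 3037 and 12000 with Ddx3y at most 38.7, and 6 had Xist at most 118 with Ddx3y between 453 and 711. In DLS, 6 libraries had Xist between 2025 and 9258 with Ddx3y at most 57.9, and 6 had Xist at most 122 with Ddx3y between 434 and 665. A gene on the span of Xist reaches 100% of its value, so reads of the 2 cannot be told apart. The labels used here give no sex. Both regions held each kind of library in equal number. The matching numbers in both regions do not pair single libraries, since the labels give no link. With the Xist level within each group as a covariate, an alternative added after these values were seen, 3563 genes passed between the regions of Foxp2hum/hum mice.

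**Figure D5:**
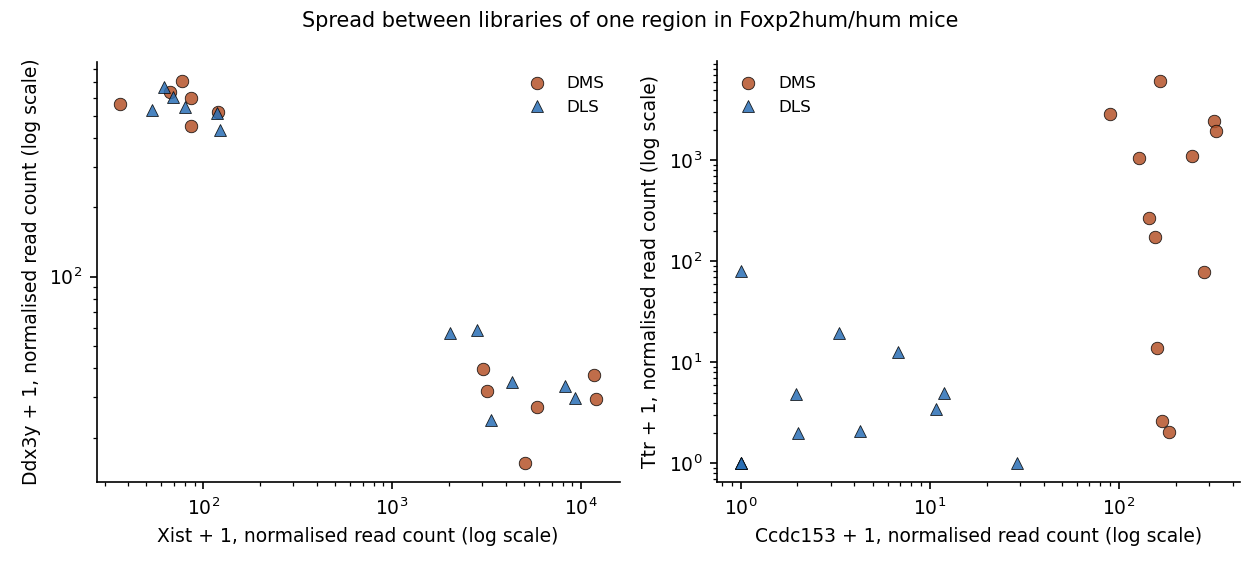
Normalised read counts on log axes in the 24 Foxp2hum/hum libraries, DMS as circles and DLS as triangles: Ddx3y against Xist on the left, Ttr against Ccdc153 on the right. Left, each region falls into 6 libraries with high Xist and low Ddx3y and 6 with the reverse; right, all DMS libraries lie above all DLS libraries for Ccdc153 while Ttr spreads over more than 3 powers of 10 within DMS.

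Ttr varied most among DMS libraries, from 1.06 to 6160, while Ccdc153 in the same libraries varied from 89.2 to 326. The 2 DMS libraries with Ttr under 10 had Ccdc153 at 169 and 184, within the range of the other 10.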

How the data were processed

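RNA-seq was done on laser-captured DMS and DLS of Foxp2hum/hum and wild-type mice. Per the submitters' processing notes, TopHat 1.4.1, bedtools, DESeq and the mm9 build were used; the labels record no further settings. The deposited table gives a signal per gene, the read count divided by a DESeq size factor, called normalised read count here. Dividing by each library's smallest step gave whole reads for 100% of values (tolerance 0.01), and these recovered read totals are the depths given. The values behave as counts over whole gene spans without strand, so reads of overlapping genes are shared; such overlaps are given from 10% of a gene's value. Positions come from GENCODE M1, in which 25023 of 25259 genes matched.

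Genes with a mean of at least 10 were tested with limma 3.58.1 (R 4.3.3) on log2(value + 1), with 4 group means over all 46 libraries, an empirical Bayes trend and Benjamini-Hochberg adjustment at 0.05, testing both directions. On data simulated for DMS against DLS of Foxp2hum/hum in 19561 genes, the test recovered 11 of 50 genes changed 1.25-fold, 34 of 50 at 1.5-fold, 49 of 50 at 2-fold and 50 of 50 at 3-fold, with 5 false calls. The changed genes were drawn only from those with a mean of at least 50, so recovery nearer the filter was not measured. Counts were drawn independently, without the differences that libraries of a region share across genes. Recovery and false calls on the real libraries may therefore be worse. Alternatives were edgeR 4.0.16 and DESeq2 1.42.0 on recovered reads, other pseudocounts, filters, scalings and covariates, and each library left out. Another 2, with Xist as a covariate and without libraries 60, 64 and 94, were chosen after seeing the data.

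The 4 labelled groups were taken from the column titles. Genes named in the text are the markers and Foxp2; the 8 genes a direction with the largest log2 difference among called genes whose libraries do not overlap, with means of at least 50 and again of at least 1000 in the higher region, without clone names or genes overlapped at 50% or more; up to 4 called members a direction of each of 52 lists, and the 3 genes a direction with the smallest interaction p. The interaction genes were taken only from genes called between the regions in Foxp2hum/hum, again without clone names or genes overlapped at 50% or more. Symbols found on more than 1 row of the table were not used in the lists. The members and lists were chosen with earlier results of these data known. Sequences are from RefSeq (GRCm38.p6). Figures were drawn with matplotlib 3.10.9.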

Additional observations from a re-analysis of the deposited data

How the results depend on the processing

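Of the 3550 genes called between DMS and DLS in Foxp2hum/hum, 1825 higher and 1725 lower, counts stayed within 1.5 times under other pseudocounts, filters, TMM and quantile scaling, edgeR (3536), DESeq2 (3814), array weights (4552) and the Foxp2hum/hum libraries alone (3400). With Ttr as a covariate 2279 were called, 1150 higher and 1129 lower, and with Ttr and Ccdc153 348, 223 higher and 125 lower; Ccdc153 separates the regions in every library, so that fit has little left to compare. Scaling to reads outside mitochondrial genes gave 665 lower genes, and an adjusted p threshold of 0.01 gave 1195 higher. In wild-type, 3377 genes became 2198 with that scaling, 258 with both covariates and 2165 at 0.01. No interaction was called under any alternative. Leaving out each library in turn gave 3275 to 3619 called genes, 1679 to 1865 higher and 1596 to 1779 lower, and 3303 to 3532 in wild-type. Genes without overlap numbered 437 to 489 (431 with all), a count that leaving out a library cannot lower. Without libraries 60, 64 and 94, 3477 were called. Of 116 genes named, 64 lost their call or changed sign with both covariates, 9 with Ttr alone, 6 with the mitochondrial scaling and 6 with quantile normalisation. Signs changed, with both covariates, for Drd1a (0.040), Fam183b (-0.68), Fhad1 (-0.78), Foxp1 (0.59), Oprd1 (0.10), Pde10a (0.20) and Sncg (-0.12); the cause was not tested. Penk ranged from -0.0066 to 0.082 with a library left out, and Tac1 passed with array weights (adjusted p = 0.0485). Depth limits genes near the mean of 10. No paired analysis was possible because the column names link no library of one region to a library of the other.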
